A study of Arabidopsis thaliana with 8 samples.

Results

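The neighbouring mitochondrial genes cob and rpl5 were followed in flowers of Arabidopsis thaliana. They were taken by gene name from the deposited tables, as 2 of the 33 genes with ribosome footprint values and as 19 of the 434 listed RNA editing sites, 10 in cob and 9 in rpl5. At least 20 informative reads in both RNA libraries were found at 15 of these sites, 8 in cob and 7 in rpl5, against 226 of the 434 sites in all. The series held 6 ribosome profiling (Ribo-seq) libraries, which sequence the mRNA fragments that ribosomes cover, and 2 RNA-seq libraries of total RNA freed of ribosomal RNA.

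The Ribo-seq groups were the wild type Col-0, the mutant mtl1 and the mutant mtsf1, with libraries A and B of each, and the RNA-seq group was Col-0 with libraries A and B. Both mutants are in the Col-0 background and each is affected in a pentatricopeptide repeat protein, an organellar RNA-binding factor: MTL1 acts in translation of the nad7 mRNA and MTSF1 in stability of the nad4 mRNA. The labels do not give the alleles. Plants grew for 10 to 12 weeks under long days in a greenhouse, and flowers of all genotypes were harvested together. Separate plants for A and B are not stated in the labels, so p-values reflect variation between libraries that may be technical in origin. The table of 33 mitochondrial genes holds no marker by which the flower label could be checked.

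Apocytochrome b, the product of cob, is the subunit of respiratory complex III that carries the hemes b and the quinone binding sites. Ribosomal protein L5, the product of rpl5, belongs to the large subunit of the mitochondrial ribosome, and its bacterial counterpart binds 5S ribosomal RNA. Plant mitochondrial transcripts are edited after transcription by C-to-U conversion at specific sites, most of which change the encoded amino acid, and pentatricopeptide repeat proteins recognise many of these sites.

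On the TAIR10.1 assembly, whose build may differ from that of the deposited files, both genes lie on the minus strand of the mitochondrial genome (MT, 367808 bp), with rpl5 upstream of cob. The rpl5 coding sequence runs from 184762 to 185319 (558 bp, 185 codons) and its annotated 5′ UTR from 185320 to 185778. The cob coding sequence runs from 181677 to 182858 (1182 bp, 393 codons) and its annotated 3′ UTR from 181619 to 181676. The 1903 bases between the coding sequences hold a pseudogene of the ribosomal protein gene rps14, at 184459 to 184760, which lies 1 base from rpl5 and 1600 bases from cob. The transcript positions listed with the editing sites place base 1 of the cob transcript at 184760, which is the upstream end of that pseudogene, and base 1 of the rpl5 transcript at 185777. The listed cob transcript therefore began 1902 bases before its start codon, and the listed rpl5 transcript 458 bases before its own.

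The first 130 coding bases of cob (11% of the coding sequence) lie in a repeat of 206 bases at 182729 to 182934. The second copy, at 207329 to 207534, matched it at 205 bases, and it covers the start of the open reading frame ORF313 and ends 45 bases from the nad4 gene. Of the 1158 words of 25 bases in cob, 85 (7.34%) recurred elsewhere in the mitochondrial genome, against 0 of 534 in rpl5. How reads that match several places were counted is given by neither labels nor headers, and the part of the repeat in the cob values was not tested.

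The sites on which the editing results turn are shown as the 26 deposited bases around each, 5′ to 3′ on the coding strand, with the edited base at position 21 in capitals. The deposited sequences write T there, where the genome has C. The 2 synonymous sites of cob had low levels, H285Y of cob was read deeply and edited almost completely, and the 4 sites of rpl5 span its full range.
cob L204L (MT 182249): taggcgccagtcttcttcatTtggcc
cob L308L (MT 181935): gcactagtttttatatgtctTttggc
cob H285Y (MT 182006): aatggtatttcctaccgatcTatgcc
rpl5 P16L (MT 185273): agatgtattacgtcaagatcTgttgc
rpl5 P20S (MT 185262): gtcaagatctgttgctcaaaTtgaat
rpl5 S31L (MT 185228): cgttatggaagttcctggatTgtgtg
rpl5 P41S (MT 185199): taagagtagtaccaaaggcaTcctat

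Each site is named by the amino acid of the genomic codon, the codon number and the amino acid after that edit alone. All 7 are coding sites, and neither gene has an annotated intron. The base before the edited one was T at 12 of the 19 listed sites, C at 4, A at 2 and G at 1. The 2 rpl5 sites with A before them, P20S and P41S, were also the least edited in that gene.

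The mutants were checked first at the genes they are known for. The deposited value per gene and library is a normalized footprint count, rounded to a whole number, made by a normalization that the labels and headers do not describe. For nad7, Col-0 had 8132 and 6785 footprints against 460 and 394 for mtl1. For nad4, Col-0 had 13818 and 11147 against 216 and 207 for mtsf1. Both genes thus lay far below the wild type in the mutant named for them. The A and B libraries of a genotype correlated across genes on a log2 scale, with r of 0.993 (Col-0), 0.990 (mtl1) and 0.988 (mtsf1). Reads behind the normalized values are unknown, and the table totals of 216316 to 290301 are not depths.

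Footprints on cob were highest in mtl1. They numbered 18163 and 15863 normalized counts in the Col-0 libraries A and B, a mean of 17013 ± 1626.3 (SD, n = 2). In mtl1 they numbered 24244 and 29832, a mean of 27038 ± 3951.3 (SD, n = 2). In mtsf1 they numbered 22712 and 17816, a mean of 20264 ± 3462 (SD, n = 2). Both mtl1 libraries lay above all 4 others, whereas mtsf1 B fell between the Col-0 libraries, so mtsf1 and Col-0 overlapped. As a share of the table total, cob held 6.26% and 5.87% in the Col-0 libraries. Its share was 9.33% and 11.3% in those of mtl1, and 9.97% and 8.24% in those of mtsf1. By that share, with totals that differ between genotypes, both mutants lay above Col-0 and overlapped each other.

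Values were compared as log2(value + 1) with limma over all 33 genes, and p-values were adjusted by the Benjamini-Hochberg method over those genes. cob rose 1.58-fold in mtl1 against Col-0 (95% interval 1.15 to 2.18; log2 fold change 0.66 ± 0.23 SE; limma adjusted p = 0.0180). In that comparison 15.2% of all genes rose, cob and rpl5 among them. The change of cob in mtsf1 against Col-0, 1.19-fold (95% interval 0.859 to 1.63), did not pass the threshold of 0.05 (limma adjusted p = 0.392). The interval includes a fall as well as a rise of about the size seen in mtl1, and the log2 fold change was 0.07 without mtsf1 A and 0.42 without mtsf1 B. The direct comparison of mtl1 with mtsf1 gave 1.34-fold (95% interval 0.969 to 1.84; limma adjusted p = 0.209), so the mutants were not shown to differ in cob, although their libraries did not overlap. The call of cob in mtl1 was lost without mtl1 B (log2 fold change 0.51, adjusted p = 0.187), without Col-0 B (0.57, adjusted p = 0.116) and when limma used each gene's own variance (adjusted p = 0.142). After scaling of all libraries to equal totals, which moved the median of all genes in mtsf1 against Col-0 from 0.03 to 0.36 on the log2 scale, cob in mtsf1 passed at 0.58 (adjusted p = 0.0155).

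Footprints on rpl5 were higher in both mutants than in Col-0. They numbered 1040 and 820 normalized counts in Col-0 A and B, a mean of 930 ± 155.6 (SD, n = 2). In mtl1 they numbered 1711 and 1638, a mean of 1674.5 ± 51.6 (SD, n = 2), and in mtsf1 2452 and 1849, a mean of 2150.5 ± 426.4 (SD, n = 2). No genotypes overlapped for rpl5, with Col-0 lowest, mtl1 in the middle and mtsf1 highest. The gap between mtl1 A and mtsf1 B was small beside that between the mtsf1 libraries themselves. Such separation was not particular to rpl5. The libraries of rps7 fell in the same genotype order. Those of rps3, rps4, rpl16, nad2, nad4, atp4, atp8, atp9, cox2 and matR were also apart by genotype, in other orders. In the remaining genes, cob among them, genotypes overlapped or met at a shared value.

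In limma, rpl5 rose 1.81-fold in mtl1 (95% interval 1.31 to 2.50; log2 fold change 0.86 ± 0.23 SE; Benjamini-Hochberg adjusted p = 0.00258). It rose 2.30-fold in mtsf1 (95% interval 1.67 to 3.18; log2 fold change 1.20 ± 0.23 SE; adjusted p = 8.6e-06), where 27.3% of all genes rose. The mutants share the Col-0 libraries as control, so these are not independent results. mtl1 against mtsf1 gave a log2 fold change of -0.35 for rpl5 (limma adjusted p = 0.291), a ratio of 0.786 (95% interval 0.570 to 1.08), and thus no difference past the threshold in a comparison that called 24.2% of all genes in either direction. After scaling to equal totals that difference passed, at -0.59 (adjusted p = 0.0255). With each gene's own variance the adjusted p of rpl5 was 0.136 in mtl1 and 0.0648 in mtsf1, and without Col-0 B the rise in mtl1 was 0.69 (adjusted p = 0.0672). Mutant RNA-seq was not used here, so mRNA abundance and translation cannot be told apart in any footprint change, nor can fewer cells of a type and less RNA per cell in these whole flowers.

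**Figure D1:**
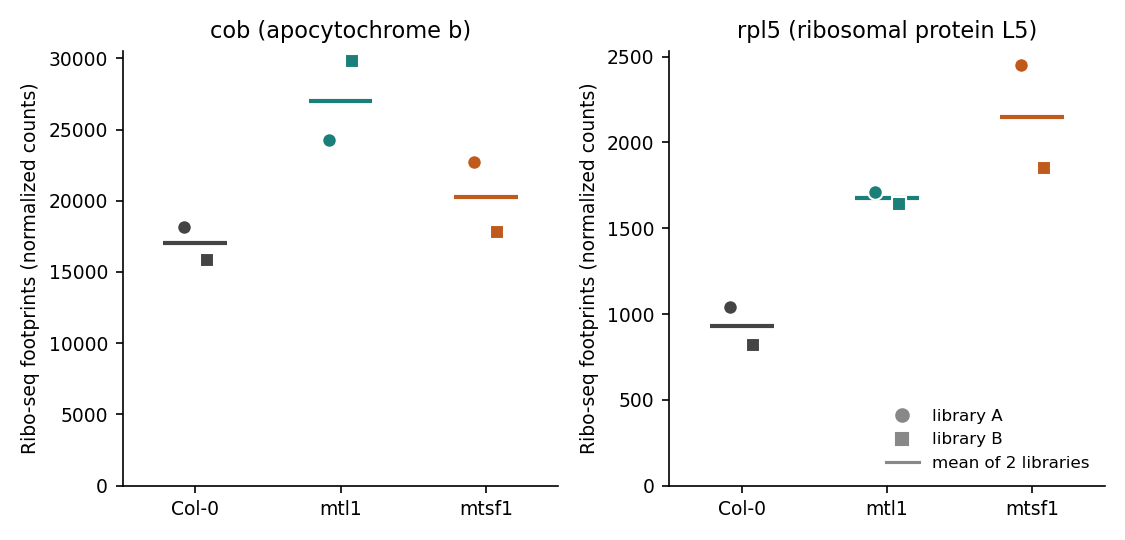
Ribosome footprints on cob (left) and rpl5 (right) in flowers, in normalized counts, for Col-0, mtl1 and mtsf1; circles are libraries A, squares libraries B and lines the mean of 2 libraries, and the axes start at 0. The mtl1 libraries lie highest for cob, where mtsf1 (17816 and 22712) overlaps Col-0, and the Col-0 libraries (820 and 1040) lie below all others for rpl5.

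Among all genes, rpl5 had the 2nd highest fold change of 33 in mtl1 and the 3rd highest in mtsf1, and cob the 5th and the 13th. In mtl1 against mtsf1, cob was 5th from the top and rpl5 25th. The plot of all fold changes shows both genes above the line of no change against Col-0 in each mutant and on opposite sides of it between the mutants.

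**Figure D2:**
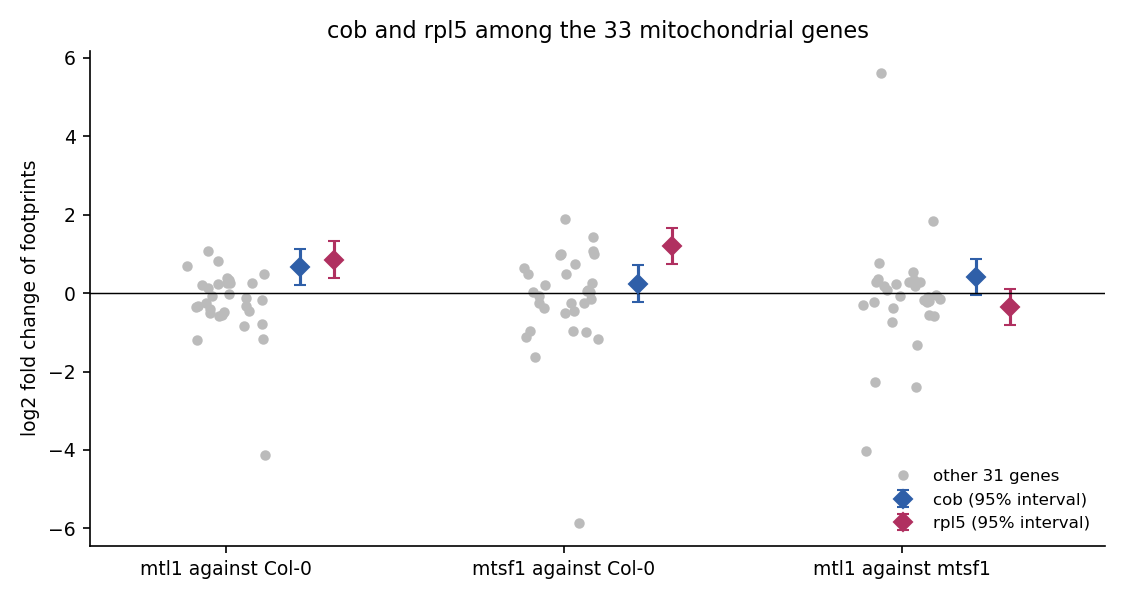
Log2 fold change of footprints for cob (blue) and rpl5 (red), with limma 95% intervals, among the other 31 genes (grey points, spread sideways only for view) in the 3 comparisons. The intervals of rpl5 lie above 0 in both mutants, that of cob does so in mtl1 only, and both reach across 0 between the mutants.

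The ratio of rpl5 to cob within a library does not depend on how that library was scaled. Footprints on rpl5 were 5.73% and 5.17% of those on cob in Col-0, a mean of 5.45% ± 0.394 (SD, n = 2). They were 7.06% and 5.49% in mtl1 (mean 6.27% ± 1.11) and 10.8% and 10.4% in mtsf1 (mean 10.6% ± 0.295). Both mtsf1 libraries lay well above the 4 others, while mtl1 B fell between the Col-0 libraries. Per kilobase of coding sequence, rpl5 stood at 12.1% and 10.9% of cob in the Col-0 libraries. The same ratio was 14.9% and 11.6% in those of mtl1, and 22.9% and 22% in those of mtsf1.

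The ratio was 1.94-fold that of Col-0 in mtsf1 (log2 difference 0.96) and 1.14-fold in mtl1 (0.19). The exact two-sided permutation test over libraries gave p = 0.333 for mtsf1 against Col-0 and p = 0.667 for mtl1 against Col-0. For mtl1 against mtsf1 the ratio was 0.588-fold (log2 difference -0.77, exact permutation p = 0.333). With 2 libraries against 2, 0.333 is the smallest p the test allows, so none of these differences could pass. The ratio in mtl1 rested on 1 library: without mtl1 A the log2 difference from Col-0 was 0.01, and without mtl1 B it was 0.37. In mtsf1 it stayed between 0.89 and 1.03 when any 1 library of that comparison was left out.

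**Figure D3:**
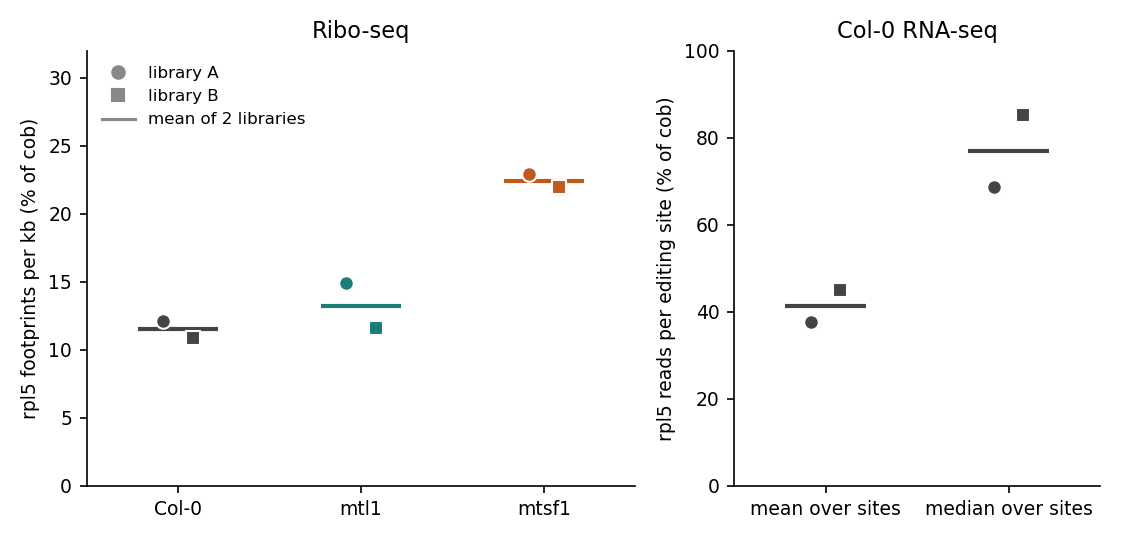
rpl5 as a percent of cob, per library (circle A, square B) with the mean as a line: on the left footprints per kilobase of coding sequence in the 3 genotypes, on the right Col-0 RNA-seq reads per listed editing site, summarised by mean or median over sites. The mtsf1 footprint ratios of 22.9% and 22% stand above the other genotypes, and the RNA-seq ratio depends on the summary used.

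Levels of different genes were set side by side per kilobase of coding length, over the 31 genes outside the near-identical atp6 copies. cob held 14393.4 ± 1375.9 normalized counts per kilobase in Col-0 (SD, n = 2). It held 22874.8 ± 3342.9 in mtl1 and 17143.8 ± 2928.9 in mtsf1. That placed it 9th of 31 in Col-0 and 5th in each mutant. Its Col-0 neighbours in that order were nad9 (14275.7 and 15211.2 per kilobase) above and nad3 (10801.1 and 13820.7) below, both subunits of complex I. The cob libraries, at 15366.3 and 13420.5, overlapped both neighbours, so the order among these genes was not resolved. In mtl1 cob (20511.0 and 25238.6) overlapped cox3, a subunit of complex IV, below it (22401.0 and 22615.3) and lay under both libraries of atp8, an ATP synthase subunit, above it (29410.9 and 25381.6). In mtsf1 cob (19214.9 and 15072.8) overlapped atp8 below it (13056.6 and 19589.1) and not atp1 above it (24180.4 and 28767.7).

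rpl5 held 1666.7 ± 278.8 normalized counts per kilobase in Col-0 (SD, n = 2 here and in the mutants). The mtl1 mean was 3000.9 ± 92.5 and the mtsf1 mean 3853.9 ± 764.1, and the levels ranked 19th, 18th and 17th of 31. In Col-0 its neighbours were rps12 (2235.4 and 1809.5 per kilobase) and rps4 (1381.1 and 1529.8), both encoding proteins of the small ribosomal subunit. The rpl5 libraries, at 1863.8 and 1469.5, overlapped both. In mtl1 rpl5 (3066.3 and 2935.5) lay apart from rps12 above and rps4 below. In mtsf1 rpl5 (4394.3 and 3313.6) overlapped rps12 above it (3611.1 and 4486.8) and lay above nad2, a complex I subunit (2407.0 and 1931.2).

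Of the footprints on all 7 such genes, rpl5 held 17.2% and 16.0% in the Col-0 libraries. It held 20.8% and 22.7% in those of mtl1, and 22.6% and 19.5% in those of mtsf1. All 4 mutant libraries lay above both Col-0 libraries, and the mutants overlapped each other. By value per gene, without correction for length, rpl5 ranked 3rd of 7 in both Col-0 libraries and in mtl1 A, 2nd in mtl1 B and 1st in both mtsf1 libraries.

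Of the 6 other ribosomal protein genes, 1 rose and 1 fell in mtl1 against Col-0 and 4 did not pass, with a median log2 fold change of 0.30 against -0.13 for all 33 genes, of which 15.2% rose and 18.2% fell. The gene that rose was rps12 (1.09), and the one that fell was rpl16 (-0.85). In mtsf1 against Col-0, 5 of these 6 rose and none fell in limma, also at an unadjusted p under 0.05, led by rpl16 (1.43) and rpl2 (1.07). Of all genes 27.3% rose and 21.2% fell there, and the median was 1.0 for the 6 against 0.03 for all. Between mtl1 and mtsf1, 3 of the 6 were lower in mtl1, with rpl16 at -2.28 and rps3 at -1.33, where 15.2% of all genes were lower, and the median was -0.55 against -0.10 for all genes. rpl16 overlaps rps3, so their counts are uncertain. With each gene's own variance none of the 6 passed in mtl1 or in mtsf1 against Col-0, where at an unadjusted p under 0.05 limma gave 2 and 5 higher and 0 lower.

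Of the 18 respiratory chain and ATP synthase genes other than cob, none rose in mtl1 in limma and 5 fell, against 18.2% of all genes that fell. No gene of the list was higher at an unadjusted p under 0.05 either, though 1 was after scaling to equal totals and 1 with own variances. The falls were led by nad7 (log2 fold change -4.12) and atp6-1 (-1.20, uncertain because its copy shares sequence), and the median was -0.31. In mtsf1 none rose, also at an unadjusted p under 0.05 in limma, and 7 fell, against 21.2% of all genes, led by nad4 (-5.87) and nad2 (-1.62), with a median again of -0.31, which became 0.02 after scaling to equal totals. Between the mutants 3 were higher in mtl1, among them nad4 (5.61) and nad2 (1.84), 1 was lower (nad7, -4.04), and the median was 0.21. Over all genes 9.09% were higher and 15.2% lower. After scaling to equal totals, 3 of the 18 were higher and 3 lower, with a median of -0.03. cob, at 0.66 in mtl1 and 0.24 in mtsf1, lay above the list's median in both comparisons with Col-0, and in that scaling at 0.58 against 0.02 in mtsf1. Own variances left 1 of the 18 fallen in mtl1 and 2 in mtsf1.

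The genes whose log2 values over the 6 Ribo-seq libraries were most like those of cob were rps4 (Pearson r = 0.712), ccmC (0.704) and ccmFN1 (0.696). For rpl5 they were ccmFN1 (0.953), ccmC (0.947) and rps7 (0.935). ccmC and ccmFN1 encode factors of cytochrome c maturation, and rps4 and rps7 proteins of the small ribosomal subunit. Between cob and rpl5 themselves r was 0.584, which ranked rpl5 5th of 32 genes for cob and cob 8th for rpl5. These values describe 6 libraries of 3 genotypes that share 1 normalization, and the genes came from those same values. Footprints of ccmFN1 were 827 and 711 in the Col-0 libraries, 1183 and 1280 in those of mtl1, and 1305 and 1278 in those of mtsf1, with Col-0 lowest as for rpl5.

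RNA editing was measured in the Col-0 RNA-seq libraries as the percent of T among T plus C reads at a site. The libraries held 46892 reads in A and 100704 in B over all listed sites, with a median of 24 and 43 per site. Intervals are Wilson 95% intervals and cover counting error only. At the 10 cob sites the reads ranged from 2 to 350 in A and from 6 to 547 in B. At the 9 rpl5 sites they ranged from 8 to 60 and from 21 to 105. A and B were compared at each site by Fisher's exact test with Benjamini-Hochberg adjustment over the 226 sites, which called 0.442% of all sites and 0 of the 15 in cob and rpl5. None of the 15 had an unadjusted p under 0.05 in that exact test either, the lowest being 0.167 at rpl5 P41S. This compares 2 libraries of 1 genotype, not conditions.

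The 6 cob sites that change an amino acid and had enough reads were edited almost completely, at a mean of 100% ± 0.0282 (SD, n = 2 libraries). P40S, H109Y, P303L, H328Y and P362S showed T in all reads of both libraries, from 33 of 33 reads at P362S in A to 131 of 131 at H328Y in A. H285Y had T in 212 of 212 reads in A and 417 of 418 in B, the single unedited read among these sites. The changes at cob were from proline to serine or leucine and from histidine to tyrosine. The bases around P40S match the genome at 2 places, since that site lies in the repeat, and reads of the other copy cannot be told apart there.

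L96F had 2 and 6 reads and H190Y 11 and 86, all with T, and neither reached 20 reads in both libraries. Such low numbers bound the level only loosely, the interval of L96F in A reaching down to 34.2%.

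The 2 synonymous cob sites stood apart from these. L204L, at the first base of a leucine codon, had T in 25 of 350 reads in A (7.14%, interval 4.88% to 10.3%) and in 34 of 546 in B (6.23%, interval 4.49% to 8.58%), a mean of 6.68% ± 0.648 (SD, n = 2). L308L, at the third base of a leucine codon, had T in 5 of 29 reads in A (17.2%, interval 7.60% to 34.5%) and 5 of 64 in B (7.81%, interval 3.38% to 17.0%), a mean of 12.5% ± 6.67. The intervals of A and B overlapped at both sites. Over both sites the mean was 9.61% ± 3.66, far below every site of cob that changes an amino acid. RefSeq annotates both as edited at minor frequency.

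At rpl5 all 9 listed sites change the amino acid of the genomic codon when edited alone. The 7 with enough reads had a mean of 83.3% ± 1.55 (SD, n = 2). Of these, 5 were at 90% or above, with means from 98.5% at P16L to all reads edited at S31L (58 of 58 in A and 61 of 61 in B). P16L had T in 33 of 34 reads in A and 101 of 101 in B. R57C had 60 of 60 and 103 of 105, S106L 37 of 37 and 36 of 37, and P171L 50 of 50 and 73 of 74. No library fell under 97.1% at these 5 sites. S12L, with 8 and 44 reads, and S110L, with 12 and 21, showed T in every read but did not reach 20 in both libraries.

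P20S was edited in part, with T in 27 of 34 reads in A (79.4%, interval 63.2% to 89.7%) and 64 of 83 in B (77.1%, interval 67.0% to 84.8%), a mean of 78.3% ± 1.63. RefSeq annotates the next base of the same codon, at MT 185261, as edited too, which is not among the listed sites. The deposited sequence has T at that base. With both bases edited the codon for proline at position 20 reads as leucine rather than serine. RefSeq gives the neighbouring edit as turning CCG into CTG, which already encodes leucine. Where that base is edited, the edit at P20S is thus synonymous. P41S was the least edited rpl5 site, with T in 3 of 21 reads in A (14.3%, interval 4.98% to 34.6%) and 2 of 47 in B (4.26%, interval 1.17% to 14.2%), a mean of 9.27% ± 7.09. The intervals overlapped, so a difference between the libraries was not detectable at this depth. RefSeq places P20S and P41S in its minor frequency class.

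**Figure D4:**
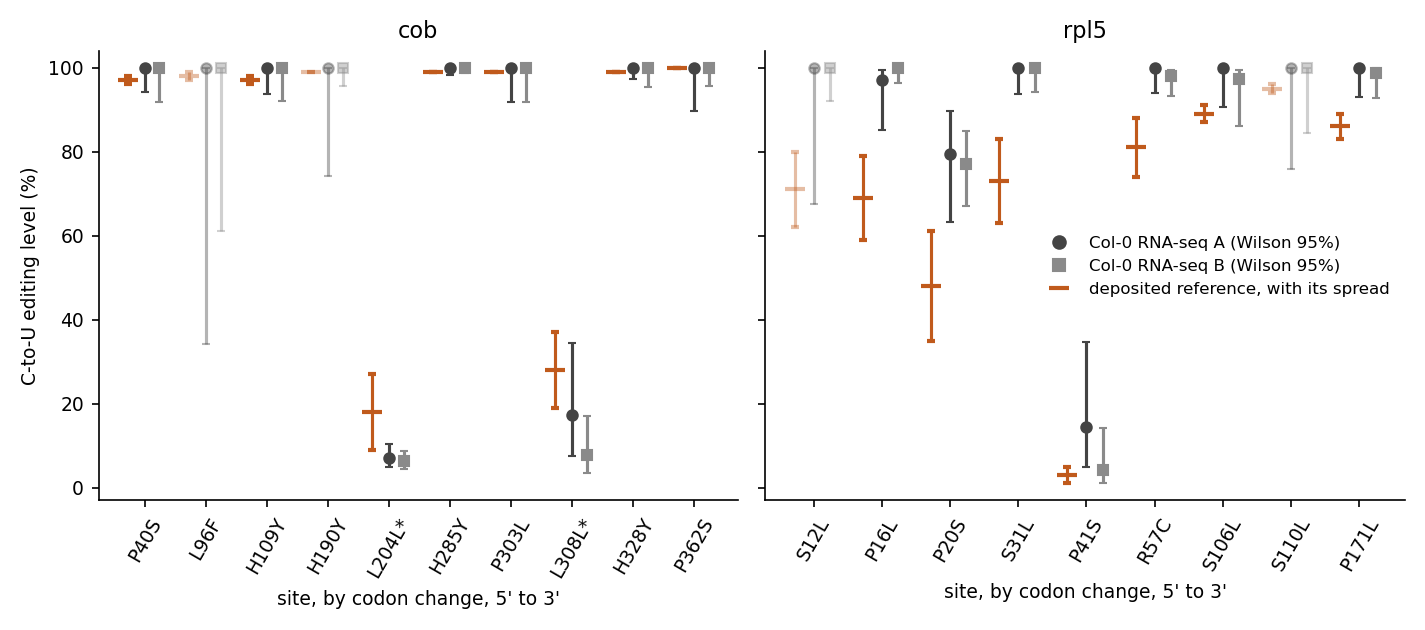
C-to-U editing level at each listed site of cob (left) and rpl5 (right) in coding order, in percent, for Col-0 RNA-seq A (circles) and B (squares) with Wilson 95% intervals, beside the deposited reference level and its spread (orange); asterisks mark synonymous sites and pale symbols sites with under 20 reads in a library. Levels in cob fall into nearly complete and low, the low ones being the synonymous sites, and the rpl5 levels lie above their reference at every site.

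The deposited tables give a reference level with a spread for each site, of unstated origin. At rpl5 the measured levels lay above it. The mean level exceeded the reference by over 10 percentage points at 5 of 7 sites (71.4%), against 14.2% of all 226 sites. These were P20S (78.3% against 48.0% ± 13.0), P16L (98.5% against 69.0% ± 10.0), S31L (all reads against 73.0% ± 10.0), R57C (99.0% against 81.0% ± 7) and P171L (99.3% against 86.0% ± 3). S106L (98.6% against 89.0% ± 2) and P41S (9.27% against 3% ± 2) lay above by less. All 7 mean levels were above the reference by more than its spread, as were 88 of the 226 sites in all. At P41S this rested on library A, 11.3 points above, while library B lay 1.26 points above, within the spread. The reference averaged 64.1% over the 7 sites and 86.9% over all 226. A site whose reference lies within 10 points of full editing cannot exceed it by over 10 points. The shares of 71.4% and 14.2% thus come from sites with unlike room to rise.

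The median difference from the reference was 18.0 percentage points in rpl5, the highest of the 15 genes with at least 5 sites. nad3, a complex I subunit, followed with 17.0 and had all 11 of its sites over 10 points above. The next gene, nad4L, was at 3.54, and the median over all 226 sites was 0.815. rpl5 also had the lowest mean reference of the 15 genes (64.1%), and so the most room above it. The part of this in its rank was not tested.

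At cob the sites that change an amino acid lay between 0 and 3 points above a reference that averaged 98.5%. The synonymous sites lay below it, with a difference of -11.3 points at L204L (reference 18% ± 9) and -15.5 points at L308L (reference 28% ± 9). These 2 of 8 sites (25%) were over 10 points below, against 6.19% of all 226 sites. The authors' deposited status for L308L in B marks it as lower than the reference. Their status is "Verified" for L308L in A and for L204L in both libraries. It is also "Verified" in both libraries for every rpl5 site with enough reads. The median difference over the 8 cob sites was 0.940, 8th of the 15 genes. Of the 8 cob sites, 5 lay above the reference by more than its spread and 2, the synonymous ones, below. Of all 226 sites, 88 lay above and 50 below by that measure. At H285Y, P303L and H328Y the deposited spread is 0, so any level over their reference of 99% counted as above. No listed rpl5 site is synonymous when edited alone, so none is set beside these.

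Reads at the editing sites also gave a view of RNA depth along the genes. Reads per cob site averaged 92.9 in A and 141.7 in B (medians 49.5 and 71.5), and reads per rpl5 site 34.9 and 63.7 (medians 34.0 and 61.0). By the mean, rpl5 had 37.6% of the reads per site of cob in A and 44.9% in B, a mean of 41.2% ± 5.22 (SD, n = 2). By the median it had 68.7% and 85.3%. L204L and H285Y held most of the cob reads, and without these 2 sites, a choice made after their values were seen, the mean ratio was 76.1% in A and 112.9% in B. The footprint ratio per kilobase in Col-0 was 11.5% ± 0.834, from other libraries and another assay, so the values stand side by side without a test. The read numbers varied more along cob than along rpl5.

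**Figure D5:**
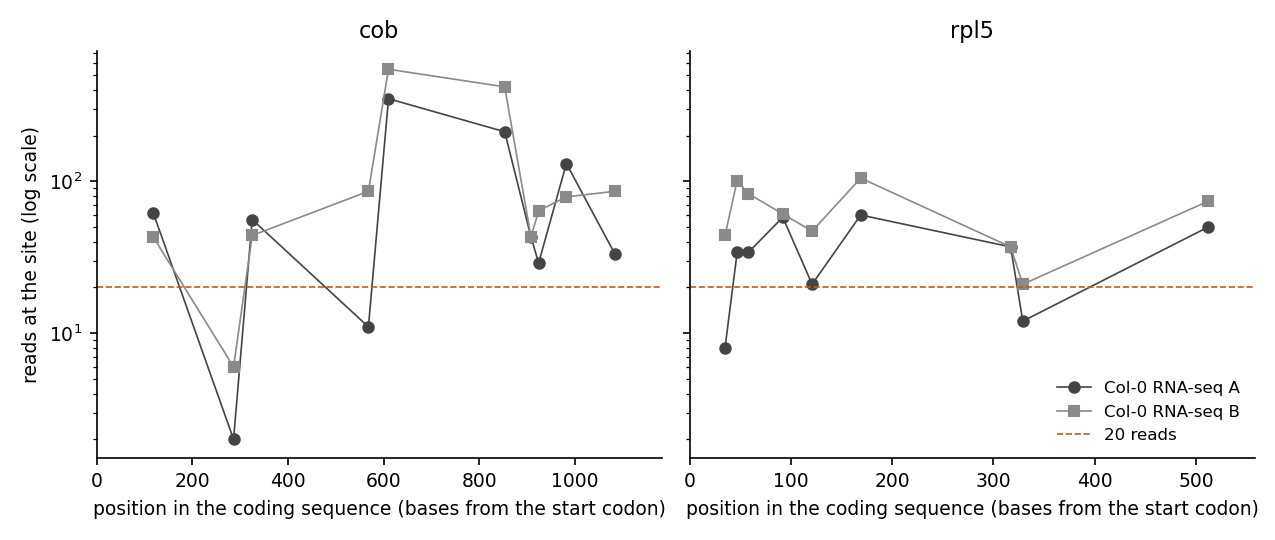
Reads at each listed editing site of cob (left) and rpl5 (right) against its distance from the start codon in bases, on a log scale, in Col-0 RNA-seq A (circles) and B (squares); the dashed line marks 20 reads. The cob sites L204L and H285Y reach 350 and 212 reads in A and stand above the rest, while the rpl5 sites stay between 8 and 60 in A.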

How the data were processed

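Per the submitters' processing notes, the authors used FastQC, cutadapt 1.9.1 and Bowtie 1.1.2, with featureCounts 1.5.0-p2 for the Ribo-seq reads. Not given in the sources used here are the build, annotation, normalization, strand handling and editing caller. Per the file headers, the deposited Ribo-seq table holds normalized read counts, treated as a score because the authors rounded them to whole numbers. The deposited editing tables hold read counts of each base at 434 sites, an observed editing fraction (T over T plus C, which the authors omit at 10 or fewer reads) and a reference fraction with its spread. Groups came from the sample titles.

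Ribo-seq values were fitted on the log2(value + 1) scale in limma 3.58.1 (R 4.3.3), 1 mean per genotype over 6 libraries, for genes above 0 in at least 2 libraries, which kept all 33. limma's prior was infinite, giving a single variance for all genes with 99 degrees of freedom. Tests were two-sided with a threshold of 0.05. Editing was recomputed from read counts with at least 20 T plus C reads in both libraries. The sequence of each site was matched to the mitochondrial genome of TAIR10.1, allowing T for C. Python 3.11.15, scipy 1.17.1, numpy 2.4.6, pandas 2.3.3 and statsmodels 0.14.6 were used, and the fits were tested on simulated data. The limma simulation gave every gene the same spread, so it could not show whether a single variance for all genes is sound.

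Named genes were cob and rpl5, nad7 and nad4 as a check, the 3 genes most correlated with each, their neighbours in level, and the 2 largest changes past the threshold in each direction among the other ribosomal protein genes and the other respiratory chain and ATP synthase genes. Genes whose footprint libraries were apart by genotype were named as well. Genes, lists and tests were chosen with earlier results of these data known. Alternatives covered pseudocounts of 0.1 and 10, scaling, low-value filters, other variance estimates, fits to 2 genotypes only, a replicate block, minimums of 1, 50 and 100 reads per site, a difference of 20 percentage points from the reference, and leaving out each library.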

Additional observations from a re-analysis of the deposited data

How the results depend on the processing

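All footprint fold changes and ratios kept their direction under the alternatives run. Of the recomputed values, 135 were classed as unchanged, 13 moved, 6 lost the threshold and 2 gained it. Test results and levels classed as unchanged stayed on the same side of their threshold or within their spread. Site counts have no spread, and the 135 include counts of rpl5 sites above the reference that rose from 5 to 6 or 7. The rpl5 to cob footprint ratios could not cross the threshold in any setting, and with 1 library left out only their direction was compared. With each gene's own variance in limma, cob in mtl1 (log2 fold change 0.66, adjusted p = 0.142), rpl5 in mtl1 (0.86, adjusted p = 0.136) and rpl5 in mtsf1 (1.20, adjusted p = 0.0648) no longer passed, since fewer degrees of freedom stood behind each test. Leaving out 1 library moved cob in mtl1 between 0.51 and 0.81 and rpl5 in mtl1 between 0.69 and 1.03, and the lone library of a genotype was then assumed to vary like the others. rpl5 in mtsf1 ranged from 1.0 to 1.41 and passed each time. The contrasts that did not pass moved too, cob in mtsf1 from 0.07 to 0.42, cob in mtl1 against mtsf1 from 0.24 (without mtsf1 B) to 0.59 (without mtsf1 A), and rpl5 in mtl1 against mtsf1 from -0.55 (without mtsf1 B) to -0.14 (without mtsf1 A), and none passed. Scaling to equal totals brought cob in mtsf1 (0.58) and rpl5 in mtl1 against mtsf1 (-0.59) past the threshold. The cause was not tested. Of all 33 genes, 5 rose in mtl1 and 9 in mtsf1, against 0 and 2 with own variances in limma (7 and 9 at an unadjusted p under 0.05) and 6 and 14 with equal totals.

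The values showed no clear pairing of libraries by the letters A and B: the A minus B differences over 33 genes correlated between genotypes at 0.0656, 0.00394 and -0.136. Such correlations cannot exclude that the libraries were handled as pairs. With a replicate block, limma gave 0.66 for cob in mtl1 (adjusted p = 0.0198), 0.86 for rpl5 in mtl1 (0.00317) and 1.20 for rpl5 in mtsf1 (1.7e-05), and it changed no call. With libraries paired by letter, the ratio of rpl5 to cob kept its log2 differences of 0.19, 0.96 and -0.77. Each had an exact permutation p of 0.500 when the signs of the paired differences were flipped. That is the smallest p this test allows here, so none could pass.

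The mean over cob sites that change an amino acid was 99.9% at minimums of 50 and of 100 reads. The rpl5 mean of 83.3% became 87.0% at a minimum of 1 read and 99.5% at 50, which left S31L, R57C and P171L. It was 84.4% without library B and 86.2% without library A. Without A, the fully edited S12L and S110L also had enough reads, and library B averaged 82.2% over the 7 sites of the main setting. With codon 20 counted as synonymous, a setting chosen after seeing the data, the rpl5 mean was 84.1%. The 5 rpl5 sites above the reference became 7 at 5 percentage points, 3 at 20, 6 at a minimum of 1 read and 6 or 7 with 1 library left out. A minimum of 50 reads left 3 rpl5 sites, all 3 above, and a minimum of 100 left 0 sites and so a count of 0. The 2 cob sites below it became 0 at 20 percentage points and 1 at minimums of 50 and of 100 reads, where L308L lacked the reads. The rpl5 to cob read ratio of 41.2% was 77.0% by medians and 94.5% without the 2 deepest cob sites, also chosen after seeing the data. Reads at rpl5 sites never exceeded 105, so partial editing there is known only within wide intervals, and the Ribo-seq depth is unknown.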
